A study of Homo sapiens with 18 samples.

Results

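GCLC, GCLM, SLC7A11, GSR, TXNRD1, TXN, SRXN1, PRDX1, NQO1 and OSGIN1 are 10 known targets of the transcription factor NRF2. All but NQO1 and OSGIN1 serve the glutathione and thioredoxin systems. The 10 genes were taken by name from the 38716 gene symbols in the tables, and all 10 were found in all 18 libraries. Earlier results of these data were known when the genes were chosen. IMR90, a human diploid fibroblast line from fetal lung, was profiled by mRNA-Seq of poly(A) RNA and by Ribo-Seq, which sequences the mRNA pieces shielded by ribosomes. Young cells were low-passage and proliferating, old cells were high-passage and had reached replicative senescence, and ICM stands for low-passage cells kept for several days with inflachromene, a compound known to bind HMGB1 and HMGB2. Each condition had 3 replicates per assay. Per the study's methods, a replicate's mRNA-Seq and Ribo-Seq libraries came from the same lysate, and they were matched here by replicate number. All groups share the IMR90 background. The study's results describe proliferating and ICM data set against senescence data produced earlier, whereas its methods list replicates of proliferating, senescent and ICM-treated cells together. The sample titles do not give the time of the experiment, nor say to which experiment the young libraries belong. A difference in time between conditions can therefore not be told apart from the conditions themselves, above all where old cells are compared. Levels are CPM, read counts scaled to the size of each library, which was itself adjusted by TMM scaling. They were taken as whole transcripts in mRNA-Seq and as coding sequence (CDS) footprints in Ribo-Seq.

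In resting cells the adaptor KEAP1 holds NRF2 (encoded by NFE2L2) in the cytoplasm and hands it to the proteasome. Oxidants and electrophiles modify cysteines of KEAP1, NRF2 then accumulates, pairs with a small MAF protein and binds antioxidant response elements (AREs) in front of its target genes, where the repressor BACH1 competes with it. Among these targets are the enzymes that make and recycle glutathione, the cell's main soluble thiol, and the thioredoxin system, which keeps protein cysteines reduced and feeds the peroxiredoxins that remove hydrogen peroxide.

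The start sites of 7 of the 10 genes (GCLC, GCLM, NQO1, OSGIN1, SRXN1, TXN and TXNRD1) had a RefSeq promoter window on GRCh38.p14 of 250 bases before to 50 after the start, with 2 windows for TXNRD1. The core of the ARE, TGACNNNGC, was searched on both strands. It was found in GCLM and TXNRD1, 2 of the 7 genes (28.6%), and in 16.1% of the 27305 genes and 13.3% of the 35116 windows of the same length. These promoter stretches are shown because NRF2 is known to act through this motif. Each runs from 120 bases before the start to the start base, 5′ to 3′ on the strand of the gene, with the matches in capitals.
GCLM (chr1:93909430-93909550, minus strand): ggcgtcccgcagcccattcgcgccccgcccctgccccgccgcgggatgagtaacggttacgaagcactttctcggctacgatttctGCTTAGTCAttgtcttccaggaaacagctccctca
TXNRD1, upstream start (chr12:104215659-104215779, plus strand): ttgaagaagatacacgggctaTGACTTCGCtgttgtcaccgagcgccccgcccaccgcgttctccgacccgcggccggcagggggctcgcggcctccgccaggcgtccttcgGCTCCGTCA
TXNRD1, downstream start (chr12:104286912-104287032, plus strand): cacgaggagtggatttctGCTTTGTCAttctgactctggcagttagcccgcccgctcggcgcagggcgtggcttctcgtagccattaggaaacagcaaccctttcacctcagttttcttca
The GCLM match lay at -34 to -26 on the reverse strand. The upstream start of TXNRD1 had a match at -99 to -91 and one at -8 to 1, and the downstream start had one at -102 to -94. The AP-1 motif (TGACTCA or TGAGTCA, each the reverse complement of the other) was found once, in the OSGIN1 window, and overlapped no match of the ARE core. A match is a run of letters and not a site shown to be bound, and windows without one may have elements farther away.

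Depth was even in mRNA-Seq, with 7902427 to 14144455 reads in coding genes per library, and uneven in Ribo-Seq, with 46239 to 1718521 CDS reads, a 37.2-fold range. The median coefficient of variation of the 10 genes between replicates was 2.47% to 6.63% in mRNA-Seq and 22.6% to 25.3% in Ribo-Seq, so that smaller changes could be called in mRNA-Seq. Ribo-Seq of young replicate 1 and old replicate 2 stood apart, with 34.4% and 15.0% of their reads in CDS (54.7% to 88.8% in the other 7 libraries) and 52.5% and 45.2% in non-coding RNA. A set of 13 genes whose mRNA-Seq level in ICM was at least 20 CPM and at least 20 times that of young and old cells, chosen after the data were seen (among them HMOX1, SPP1 and AKR1C1), summed to 951 and 1147 footprint CPM in these libraries, against 125 to 170 in the other young and old libraries and 5617 to 9416 in ICM. The part of this signal in the results was not tested, and footprint and efficiency values are in places also given without both lysates, a comparison chosen after the data were seen. Old replicate 3, with 54.7% of its Ribo-Seq reads in CDS and 23.9% in non-coding RNA, stays in that comparison. Old replicate 2 also had 44.7% of its Ribo-Seq reads in coding genes in the 5′ UTR. Fibroblast markers (8 genes, COL1A1 and FN1 among them) were present in every library, with summed mRNA-Seq levels of 30607 to 34889 CPM in young, 29225 to 34267 in old and 12312 to 12571 in ICM. Epithelial, endothelial and immune markers (5, 4 and 4 genes) summed to at most 2.35, 4.49 and 1.04 CPM in any mRNA-Seq library and to at most 2.55, 20.1 and 4.98 CPM in any Ribo-Seq library, with 0, 1 and 2 of them at 0 in all mRNA-Seq libraries. Muscle markers (3 genes) were expressed and moved with condition, at 91.6 to 100.3 CPM in young, 78.1 to 91.1 in old and 31.1 to 31.7 in ICM by mRNA-Seq and at 436 to 542, 612 to 714 and 177 to 227 by Ribo-Seq, and their part in the results was not tested. In such bulk samples, fewer cells with a transcript and less of it per cell cannot be told apart.

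All 10 genes rose with ICM in both assays, and in old cells most of them fell at the transcript level. Against young cells, transcripts of 10 of the 10 genes were higher in ICM, where edgeR called 34.9% of the 13173 genes tested higher and 36.1% lower, at a median log2 change of 1.89 against -0.0070 over all genes. In old against young cells, 2 genes were higher (background, the share over all genes tested, 32.4%) and 6 lower (background 33.7%), with a median of -0.41 against -0.015. CDS footprints were higher in ICM than in young cells for 10 of the 10 genes (background 13.7% higher and 12.9% lower among 4643 genes tested), with a median of 1.63. In old against young cells, footprints of 2 genes were higher (background 19.3%) and of 4 lower (background 17.0%). Summed over the 10 genes, transcripts amounted to 3296 ± 30.7 CPM in young, 2458 ± 126 in old and 10622 ± 200 in ICM (n = 3, ± SD), and footprints to 5397 ± 638, 4360 ± 758 and 12909 ± 2487. All 10 genes passed the filter on low counts in each assay.

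**Figure D1:**
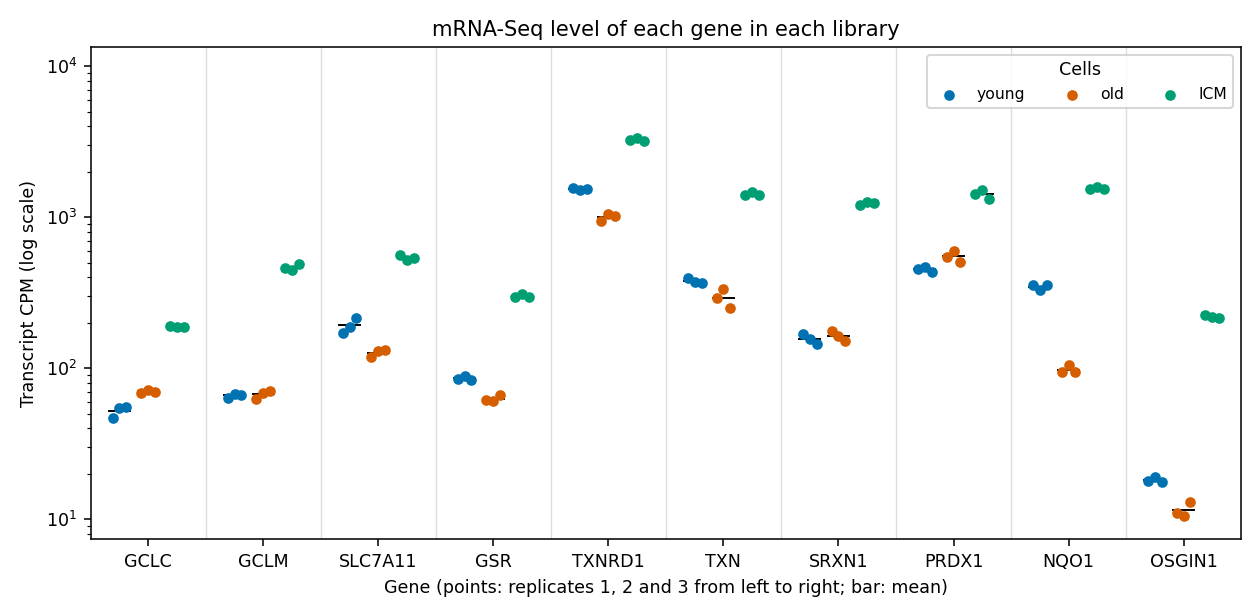
Transcript level of each gene (CPM, log axis) in the 9 mRNA-Seq libraries, with 1 point per replicate and a bar at the mean of each condition. The ICM points lie above all young and old points for every gene, while old points lie below young ones for 6 genes, by the widest margin for NQO1. How often groups lie apart over all genes was not counted. CPM is not scaled to transcript length, so heights should not be compared between genes.

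**Figure D2:**
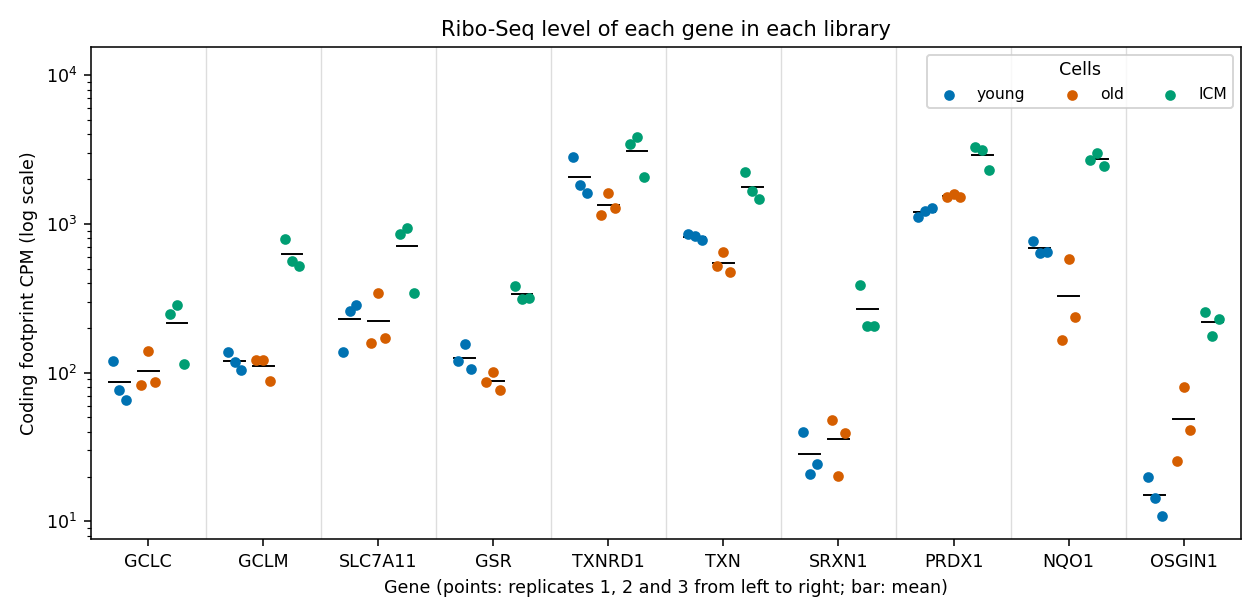
CDS footprint level of each gene (CPM, log axis) in the 9 Ribo-Seq libraries, with 1 point per replicate and a bar at the mean. ICM points lie above all young points for 8 genes and overlap them for GCLC and TXNRD1, and old replicate 2 is the highest old library for every gene but GCLM and SRXN1. The share of all genes whose ICM points lie apart from the young ones was not counted.

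Cystine import and glutathione synthesis were represented by SLC7A11, GCLC and GCLM. SLC7A11 (chr4:139085251-139163503, minus strand; gene positions here and below are those of GENCODE on GRCh37) encodes the transport subunit of the cystine-glutamate exchanger, which supplies the cysteine for glutathione. Its transcripts were at 173, 187 and 217 CPM in the young replicates, 119, 129 and 132 in the old and 559, 525 and 542 in the ICM replicates. The 3 conditions did not overlap, with ICM highest and old lowest. The level in ICM was 2.82 times that in young cells (log2 change 1.49, SE 0.074, adjusted p = 3.43e-14), and the level in old cells was lower by a factor of 1.52 (log2 change -0.60, SE 0.075, adjusted p = 3.41e-07). Footprints stood at 139, 261 and 287 CPM in young, 157, 342 and 170.3 in old and 857, 941 and 343 in ICM. ICM lay above young in every replicate (log2 change 1.55, SE 0.25, adjusted p = 9.09e-06), although ICM replicate 3 was only just above the highest old library. Old and young overlapped and the difference was not called (log2 change -0.57, 95% interval -1.07 to -0.067, adjusted p = 0.0688), with old replicate 2 above and young replicate 1 below all others of the pair of groups. It was called lower in old cells without both of these lysates (log2 change -0.73, adjusted p = 0.00570).

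GCLC (chr6:53362139-53481768, minus strand) is the catalytic and GCLM (chr1:94350755-94375012, minus strand) the modifier subunit of glutamate-cysteine ligase, the rate-limiting enzyme of glutathione synthesis. GCLC transcripts were at 47.0, 54.2 and 55.2 CPM in young, 68.9, 72.3 and 69.6 in old and 191, 189 and 188 in ICM. GCLC was one of the genes that rose in old as well as in ICM cells, by 0.43 on the log2 scale in old (SE 0.070, adjusted p = 1.36e-05) and 1.86 in ICM (SE 0.067, adjusted p = 1.29e-16). GCLM transcripts were at 63.7, 67.5 and 67.0 CPM in young, 62.2, 68.1 and 71.2 in old and 465, 446 and 491 in ICM. The young and old libraries of GCLM overlapped (log2 change 0.025, 95% interval -0.12 to 0.17, adjusted p = 0.772), whereas ICM was 7.07 times young (log2 change 2.82, SE 0.069, adjusted p = 1.16e-19). The modifier subunit thus had the larger log2 change of the pair in ICM, with intervals of 2.68 to 2.96 for GCLM and 1.72 to 1.99 for GCLC.

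Footprints of GCLC were at 119, 76.7 and 65.5 CPM in young, 82.5, 141 and 86.2 in old and 246, 286 and 114 in ICM. ICM replicate 3, with 5 GCLC reads, fell below young replicate 1, with 6, so that the groups overlapped although the fit called the rise (log2 change 1.70, SE 0.30, adjusted p = 5.03e-05), also without both lysates of low CDS share (log2 change 1.63, adjusted p = 1.57e-05). Footprints of GCLM were at 139, 118 and 104 CPM in young, 122, 121 and 88.3 in old and 788, 559 and 525 in ICM, with every ICM library above the others (log2 change 2.58, SE 0.23, adjusted p = 5.79e-11). Neither subunit was called in old against young footprints, with log2 intervals of -0.26 to 0.80 for GCLC and -0.48 to 0.46 for GCLM, which include changes of the size seen in the GCLC transcripts.

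Glutathione recycling was represented by GSR (chr8:30535583-30585363, minus strand), the glutathione reductase that regenerates the reduced thiol with NADPH. GSR transcripts were at 85.0, 88.7 and 84.1 CPM in young, 61.4, 60.9 and 66.7 in old and 297, 311 and 298 in ICM. No library overlapped with those of another condition. The ICM level was 3.51 times the young level (log2 change 1.81, SE 0.062, adjusted p = 5.11e-17), and the old level was lower (log2 change -0.45, SE 0.066, adjusted p = 2.99e-06). Footprints were at 119, 155 and 105 CPM in young, 86.0, 101 and 75.9 in old and 384, 314 and 319.7 in ICM. ICM was again highest in every replicate (log2 change 1.50, SE 0.25, adjusted p = 1.99e-05). The lower footprint level of old cells was at the edge of the threshold (log2 change -0.58, SE 0.24, adjusted p = 0.0499) and was not called without the 2 lysates of low CDS share (log2 change -0.57, adjusted p = 0.0870), with DESeq2 (adjusted p = 0.260), without the count filter (0.145), with a replicate block (0.223), or without any one young or old lysate other than young replicate 1.

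TXN and TXNRD1 form the thioredoxin system itself. TXN (chr9:113006090-113018787, minus strand) encodes thioredoxin, the small disulfide-reducing protein. Its transcripts were at 396, 370.4 and 366 CPM in young, 292, 338 and 249 in old and 1409.6, 1473 and 1409.6 in ICM. The old libraries were lowest and the ICM libraries highest, without overlap (log2 change -0.36, SE 0.081, adjusted p = 0.000450 for old against young, and log2 change 1.92, SE 0.082, adjusted p = 2.69e-15 for ICM against young). Counting only CDS reads in mRNA-Seq, the fall in old cells was not called (log2 change -0.25, adjusted p = 0.0656). TXN footprints were at 852, 829 and 781 CPM in young, 521, 644 and 472 in old and 2227, 1664 and 1461 in ICM, again without overlap. They rose 2.26-fold in ICM (log2 change 1.18, SE 0.18, adjusted p = 6.12e-06), less than the 3.79-fold rise of the transcripts, and were lower in old cells (log2 change -0.65, SE 0.18, adjusted p = 0.00623). The latter call was lost without the count filter (adjusted p = 0.0521), without young replicate 2 (adjusted p = 0.0535) and without old replicate 3 (0.0667), but not without both lysates of low CDS share (log2 change -0.66, adjusted p = 0.00257).

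TXNRD1 (chr12:104609557-104744085, plus strand) encodes the cytosolic selenoprotein that reduces thioredoxin with NADPH. TXNRD1 transcripts were at 1567, 1527 and 1544 CPM in young, 952, 1055 and 1026 in old and 3252, 3337 and 3199.6 in ICM. It had the lowest fold change of the 10 genes in ICM (2.11-fold, log2 change 1.08, SE 0.062, adjusted p = 4.63e-13) and was lower in old cells by a factor of 1.53 (log2 change -0.61, SE 0.061, adjusted p = 1.08e-08), with all conditions apart. Footprints were at 2813, 1827 and 1607 CPM in young, 1142, 1609.6 and 1272 in old and 3424, 3847 and 2078 in ICM. Young replicate 1 was above ICM replicate 3, and old replicate 2 was just above young replicate 3. The ICM rise was called (log2 change 0.68, SE 0.20, adjusted p = 0.00977), but not with DESeq2 (adjusted p = 0.0692), without the count filter (0.123), or without young replicate 2 (0.150), young replicate 3 (0.219), ICM replicate 1 (0.106) or ICM replicate 2 (0.0874). Without both lysates of low CDS share it was called (log2 change 0.76, adjusted p = 5.82e-05). The lower footprint level in old cells was called (log2 change -0.62, SE 0.20, adjusted p = 0.0153) and lost with DESeq2 (adjusted p = 0.0626), without old replicate 1 (adjusted p = 0.125) or old replicate 3 (0.0680).

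PRDX1 and SRXN1 act on peroxide. PRDX1 (chr1:45976586-46008404, minus strand) encodes an abundant cytosolic peroxiredoxin that thioredoxin keeps reduced. Its transcripts were at 454, 469.8 and 437 CPM in young, 549, 601 and 508 in old and 1424, 1509 and 1331 in ICM. They rose in old cells by 0.29 on the log2 scale (SE 0.070, adjusted p = 0.00107) and in ICM by 1.65 (SE 0.071, adjusted p = 3.03e-15), with no overlap. PRDX1 footprints were at 1109, 1219 and 1280.2 CPM in young, 1506, 1589 and 1511 in old and 3282, 3151 and 2306 in ICM. Every old library exceeded every young one, but the difference was not called (log2 change 0.32, 95% interval -0.013 to 0.66, adjusted p = 0.124), and ICM exceeded both (log2 change 1.28, SE 0.17, adjusted p = 3.44e-07 against young).

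SRXN1 (chr20:627259-633844, minus strand) encodes sulfiredoxin, which repairs peroxiredoxins that have been overoxidised by peroxide. SRXN1 transcripts were at 168, 157 and 146 CPM in young, 177, 163 and 153 in old and 1205, 1259 and 1238 in ICM. Young and old overlapped and no difference was called (log2 change 0.068, 95% interval -0.076 to 0.21, adjusted p = 0.400), whereas ICM was 7.88 times young (log2 change 2.98, SE 0.072, adjusted p = 1.09e-19). Its footprints were few, with 2, 13 and 38 reads in the young libraries, 68, 1 and 19 in the old and 79, 15 and 9 in ICM, that is 39.6, 20.8 and 24.2 CPM in young, 48.4, 20.1 and 39.0 in old and 389, 205 and 206 in ICM. ICM stood above both (log2 change 3.68, SE 0.34, adjusted p = 2.01e-10 against young). Old against young was called higher in spite of overlap (log2 change 0.90, SE 0.35, adjusted p = 0.0442), and the call was lost with DESeq2 (adjusted p = 0.389), without the count filter (0.0828), with a replicate block (0.575) and without any one young or old lysate other than old replicate 2. Without both lysates of low CDS share it was called (log2 change 0.99, adjusted p = 0.0359).

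NQO1 and OSGIN1 transcripts had the largest fold changes between old and ICM cells of the 10 genes. NQO1 (chr16:69740899-69760571, minus strand) encodes a quinone reductase that uses NADH or NADPH and is a classical reporter of NRF2 activity. NQO1 transcripts were at 358, 328 and 358 CPM in young, 94.0, 105 and 94.3 in old and 1534, 1576 and 1546 in ICM. Each condition formed a tight group far from the others. Old cells were lower than young cells by a factor of 3.55 (log2 change -1.83, SE 0.068, adjusted p = 6.61e-16), the largest fall of the 10 genes, and ICM cells were at 4.46 times the young level (log2 change 2.16, SE 0.065, adjusted p = 5.84e-18). Footprints were at 772, 636 and 649 CPM in young, 165, 583 and 236 in old and 2680.4, 3001 and 2466 in ICM. Old replicate 2, from 29 reads, came close to the young libraries, and the other old libraries lay well below them. The fall in old cells (log2 change -1.51, SE 0.24, adjusted p = 7.47e-06) was also called without both lysates of low CDS share (log2 change -1.70, adjusted p = 1.53e-15), and the ICM rise amounted to 4.10-fold (log2 change 2.04, SE 0.22, adjusted p = 5.43e-09).

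OSGIN1 (chr16:83964916-83999937, plus strand), oxidative stress induced growth inhibitor 1, is a growth-restraining protein known for its induction by oxidative stress. Its transcripts were at 17.9, 18.9 and 17.7 CPM in young, 11.0, 10.5 and 13.1 in old and 226, 219.7 and 215 in ICM. They fell in old cells (log2 change -0.66, SE 0.10, adjusted p = 4.75e-06) and rose 12.1-fold in ICM (log2 change 3.60, SE 0.076, adjusted p = 1.45e-20), the highest fold change of the 10. Footprints came from 1, 9 and 17 reads in young, 36, 4 and 20 in old and 52, 13 and 10 in ICM, or 19.8, 14.4 and 10.8 CPM, 25.6, 80.5 and 41.0 CPM and 256, 177 and 228 CPM. Here the order was young, old, ICM without overlap, unlike that of the transcripts. ICM was higher than young (log2 change 4.21, SE 0.42, adjusted p = 1.18e-09), and so was old (log2 change 1.41, SE 0.45, adjusted p = 0.0136). The rise in old was called without both lysates of low CDS share (log2 change 1.37, adjusted p = 0.0215) but not with DESeq2 (adjusted p = 0.0692), with a replicate block (0.0735) or without young replicate 2 (0.0853), young replicate 3 (0.254) or old replicate 3 (0.151).

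**Figure D3:**
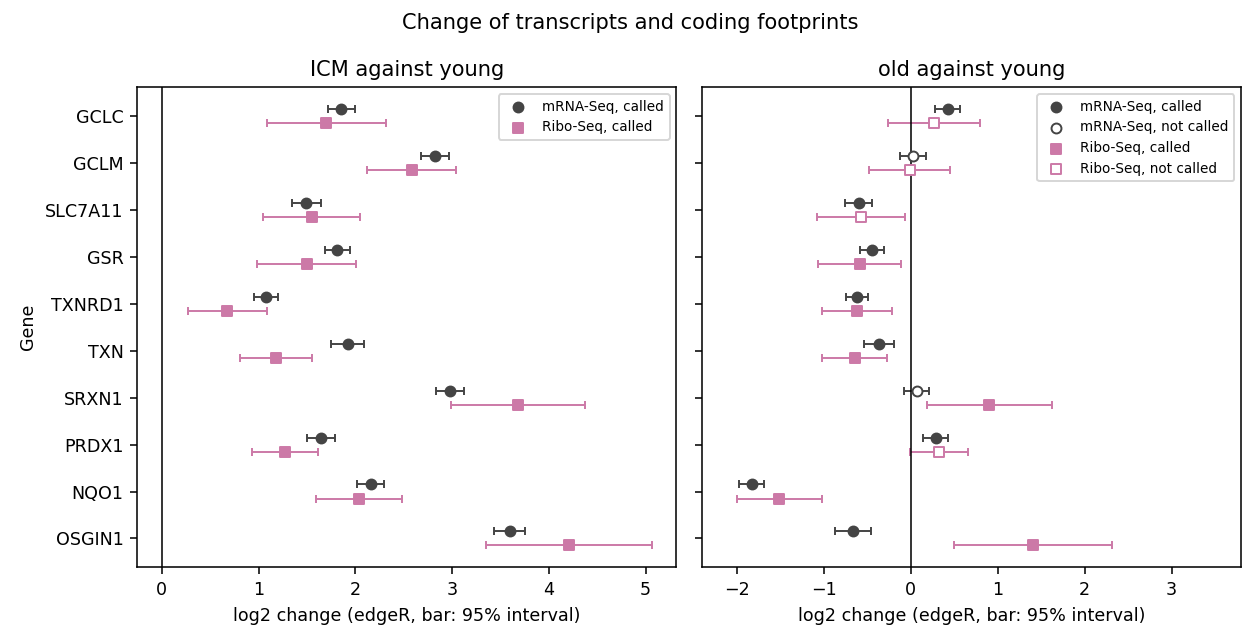
Log2 change of transcripts (circles) and CDS footprints (squares) of each gene in ICM against young cells and in old against young cells, with 95% intervals from edgeR (filled, adjusted p under 0.05). In ICM all values lie right of 0 in both assays. In old cells NQO1 lies left of 0 in both assays, and OSGIN1 lies left of 0 for transcripts (log2 change -0.66) and right of it for footprints (1.41).

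ICM and old cells were also compared directly. Transcripts of 10 of the 10 genes were higher in ICM (background 30.7% higher and 32.6% lower), by a log2 change of 1.36 for PRDX1 up to 4.26 (SE 0.080) for OSGIN1 and 3.99 (SE 0.072) for NQO1, with a highest adjusted p of 1.04e-13. No gene's libraries overlapped, but the share of all genes without overlap was not counted. Footprints of 10 of the 10 genes were also higher in ICM (background 5.79% higher and 7.62% lower), by 0.95 for PRDX1 up to 3.55 (SE 0.25) for NQO1, with a highest adjusted p of 0.000654 for GCLC, the gene of which ICM and old libraries overlapped. The ICM libraries are common to this comparison and that with young cells, and the values of the 3 comparisons are therefore not independent.

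Translational efficiency, the footprint level relative to the transcript level, was compared between conditions by the interaction term of a fit over both assays. In ICM against young cells 1 of the 10 genes was called (background 2.45% of 4618 genes in either direction). The ratio of footprint CPM to transcript CPM of TXN was 2.15, 2.24 and 2.13 in the young lysates, 1.78, 1.91 and 1.90 in the old and 1.58, 1.13 and 1.04 in the ICM lysates. The ICM ratios were lowest and the young highest, without overlap, and footprints had risen less than transcripts in ICM (log2 change -0.77, SE 0.18, adjusted p = 0.0138). The call was lost without young replicate 2 (adjusted p = 0.0862), young replicate 3 (0.0691) or ICM replicate 2 (0.0599) and kept without both lysates of low CDS share (log2 change -0.94, adjusted p = 0.000111), at log2 changes of -1.11 to -0.75 over the 9 fits that left out a lysate.

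In old against young cells 1 of the 10 genes was called (background 1.45%). OSGIN1 had ratios of 1.11, 0.760 and 0.610 in the young, 2.33, 7.64 and 3.14 in the old and 1.14, 0.807 and 1.06 in the ICM lysates. Every old ratio exceeded the highest young and ICM ratio (log2 change 2.13, SE 0.44, adjusted p = 0.00345), with the highest in old replicate 2, from 4 reads. Without both lysates of low CDS share the log2 change was 1.96, adjusted p = 0.00771. It was 2.16 without young replicate 2 (adjusted p = 0.0904), 1.88 without young replicate 3 (adjusted p = 0.423) and 2.01 without old replicate 3 (adjusted p = 0.134). Of the other genes, SRXN1 came nearest (log2 change 0.79, 95% interval 0.11 to 1.48, adjusted p = 0.294).

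None of the 10 genes was called in ICM against old cells by edgeR (background 0.260%) or by DESeq2. By unadjusted p under 0.05 in edgeR there were 5, all with a lower efficiency in ICM. The share of all genes at that unadjusted threshold was not counted, and the background above does not apply to it. OSGIN1 was closest to the threshold (log2 change -1.52, 95% interval -2.26 to -0.77, adjusted p = 0.0604, and log2 change -1.48, adjusted p = 0.0508 without both lysates of low CDS share), followed by TXN (log2 change -0.59, 95% interval -0.97 to -0.21, adjusted p = 0.192) and PRDX1 (log2 change -0.50, 95% interval -0.85 to -0.15, adjusted p = 0.223). For the genes not called, the 95% intervals in ICM against young cells reached from -0.83 (GSR) to 1.47 (OSGIN1) on the log2 scale, so that moderate changes in efficiency were not detectable at this depth.

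**Figure D4:**
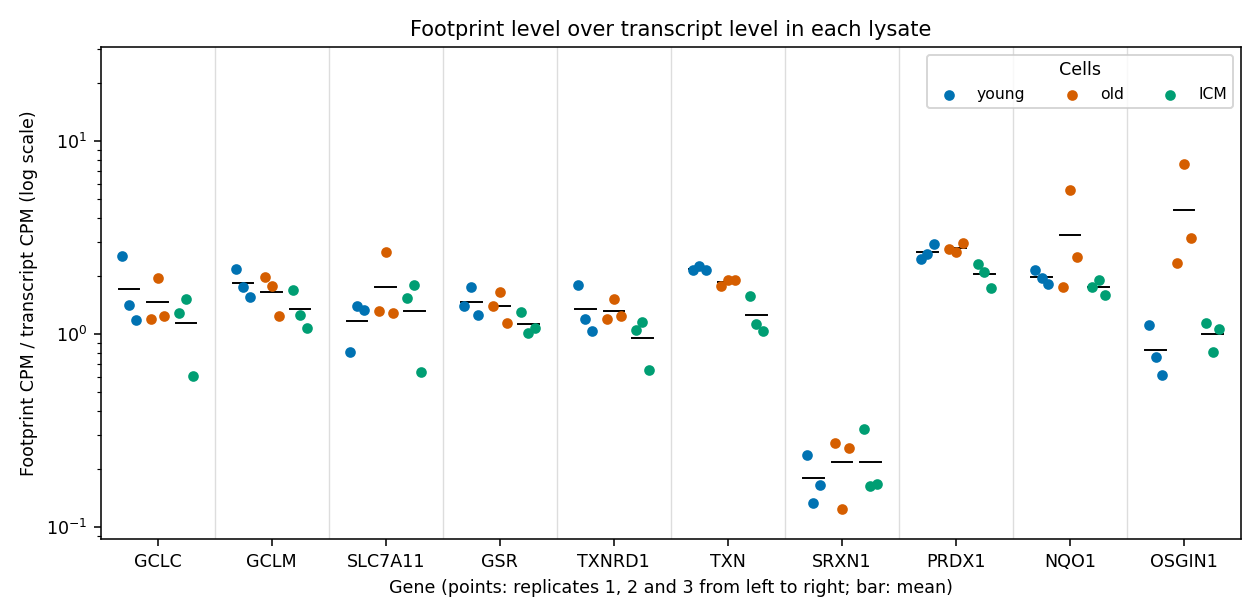
Ratio of footprint CPM to transcript CPM of each gene (log axis) in each of the 9 lysates, with a bar at the mean. For TXN the ICM points (1.04 to 1.58) lie below the young ones (2.13 to 2.24), and for OSGIN1 the old points (2.33 to 7.64) lie above the young (0.610 to 1.11) and ICM ones.

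Per length, the order of the genes could be compared, as mRNA-Seq CDS reads in CPM per kb of CDS (mean ± SD, n = 3). In young cells TXN (range 566 to 796) and PRDX1 (465 to 534) led, followed by TXNRD1 (435 ± 16.9), NQO1 (269 ± 12.0), SRXN1 (66.5 ± 3.58), GCLM (47.7 ± 2.96), GSR (41.4 ± 2.78), SLC7A11 (32.0 ± 3.38), GCLC (22.2 ± 1.68) and OSGIN1 (10.1 ± 0.442). Neighbours in this order did not overlap in the young libraries, nor did neighbours in the ICM order. In old cells PRDX1 (637 ± 44.6) stood above TXN (563 ± 84.3), NQO1 (74.1 ± 7.49) next to SRXN1 (71.9 ± 8.63) and GCLC (29.6 ± 1.76) next to GSR (28.9 ± 1.27), and the libraries of each of these pairs overlapped. In ICM, NQO1 (1143 ± 62.8) had passed TXNRD1 (907 ± 21.4) and OSGIN1 (120.1 ± 2.96) stood above SLC7A11 (92.5 ± 2.41) and GCLC, below TXN (2449 ± 292) and PRDX1 (1555 ± 134) at the top. Within the ligase, GCLM exceeded GCLC per length in each condition, at 318 ± 13.8 against 81.1 ± 2.55 in ICM. In footprint CPM per kb of CDS, TXN was at 2606 ± 114 in young, 1742 ± 299.9 in old and 5657 ± 1267 in ICM, and OSGIN1 at 10.5 ± 3.16, 34.3 ± 19.8 and 154 ± 28.0.

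The genes differed in where their mRNA-Seq reads lay. In young cells, the 3′ UTR held 80.8% ± 2.35 of the reads of SRXN1 and 68.6% ± 3.67 of those of SLC7A11 (mean ± SD, n = 3), but 4.98% ± 2.50 of those of OSGIN1. The 5′ UTR held 43.2% ± 7.48 of the TXN and 25.7% ± 4.54 of the PRDX1 reads. The ratio of CDS footprints to whole-transcript reads is lower by construction where UTRs hold most reads, as in SRXN1, and was compared only within a gene. The 3′ UTR share of NQO1 came to 14.6% ± 0.366 in the young libraries, 19.5% ± 0.997 in the old and 17.3% ± 0.892 in ICM, without overlap between conditions, and that of GCLC was 9.02% ± 0.847 in ICM, below every young and old library (11.6% ± 0.433 and 12.4% ± 1.06). The young, old and ICM libraries overlapped for SRXN1 (80.5% ± 1.42 in old and 79.2% ± 4.68 in ICM). These shares were not tested. Some counts were fractional, which means that some reads were divided between features. For CDS footprints of TXN and PRDX1 this held in 6 and 5 of the 9 libraries. In mRNA-Seq it held for the 3′ UTR of NQO1 in 8 of the 9 libraries, and for those of GCLM, SLC7A11 and GSR in 7 each. The NQO1 3′ UTR shares above thus include divided reads.

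Across the 9 mRNA-Seq libraries, the genes nearest to each of the 10 in profile were found among 10799 genes by the root mean square difference of centred log2 CPM, which is a description of likeness and carries no test. The heavy and light ferritin chains, iron-storage proteins that are themselves NRF2 targets, were among them. FTH1 was the nearest gene to GSR (difference 0.117) and among the 3 nearest to TXN (0.130), and FTL was among the 3 nearest to SRXN1 (0.174). MMACHC was nearest to PRDX1 (0.0567), MFF to TXNRD1 (0.0617), ADM to GCLC (0.0887), NUDT11 to SLC7A11 (0.0759) and SLC13A3 to TXN (0.120). OSGIN1 and NQO1 had the most distant nearest genes, F2RL2 (0.229) and MAOA (0.148).

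Other NRF2 targets, 25 genes of which 24 were tested in mRNA-Seq, are given as a separate list. In ICM against young cells 24 of 24 were higher (34.9% of all genes), at a median log2 change of 1.79, and in old against young cells 17 were lower (33.7% of all genes), 1 higher (32.4%) and 6 not called, at a median of -0.45 (medians over all genes -0.0070 and -0.015). The aldo-keto reductases AKR1C1 (log2 change 6.81, SE 0.11, adjusted p = 2.32e-22) and AKR1B10 (log2 change 6.23, SE 0.12, adjusted p = 2.30e-21) rose most in ICM, although reads of such near-identical family members may be split between them. In old cells PGD, an NADPH-producing enzyme of the pentose phosphate pathway, fell (log2 change -1.10, SE 0.061, adjusted p = 6.18e-13), and ABHD4, a lipid hydrolase, was the one that rose (log2 change 0.29, SE 0.072, adjusted p = 0.00138). Footprints of 19 of the 20 tested were higher in ICM than in young cells (13.7% of all genes), and in old cells 3 were higher, 3 lower and 14 not called, near the 19.3% and 17.0% of all genes. FTL and FTH1 were called for translational efficiency in old against young cells (log2 change 1.99, SE 0.27, adjusted p = 4.25e-06 for FTL, and log2 change 1.07, SE 0.22, adjusted p = 0.00354 for FTH1), and none of the other 18 was (1.45% of all genes called in either direction). Without both lysates of low CDS share, the log2 change was 2.10, adjusted p = 2.14e-26 for FTL and 1.09, adjusted p = 1.07e-05 for FTH1. Against old cells, ICM transcripts of 24 of 24 were higher (30.7% of all genes) and footprints of 20 of 20 (5.79%). Efficiency was lower for 3 of 20 (0.260% of all genes called in either direction), AKR1C1 (log2 change -2.16, SE 0.48, adjusted p = 0.0373), FTL (log2 change -1.84, SE 0.26, adjusted p = 8.41e-05) and FTH1 (log2 change -1.28, adjusted p = 0.00196), the last of which was named after its values were seen. AKR1C1 is one of the 13 ICM-high genes found in the 2 Ribo-Seq libraries that stood apart, and its footprints in old cells were at 129 ± 168 CPM. Without both lysates the log2 changes were -1.71, adjusted p = 7.89e-05 for AKR1C1, -1.78, adjusted p = 1.33e-21 for FTL and -1.35, adjusted p = 2.08e-08 for FTH1.

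The other glutathione and thioredoxin genes had members that rose and members that fell in both comparisons. Of 36 other glutathione genes tested in mRNA-Seq, 19 were higher, 12 lower and 5 not called in ICM against young cells (median log2 change 0.20, against 34.9% of all genes higher and 36.1% lower), and 13 were higher, 12 lower and 11 not called in old cells (median 0.065), near the 32.4% and 33.7% of all genes. Among those with a mean of at least 5 CPM, GPX3, a secreted glutathione peroxidase, rose most in ICM (log2 change 2.98, SE 0.13, adjusted p = 4.36e-15), and CHAC1, which degrades glutathione, fell (log2 change -1.91, SE 0.10, adjusted p = 4.43e-14). Among the same genes GPX4, the peroxidase for membrane lipids, fell most in old cells (log2 change -1.11, SE 0.067, adjusted p = 2.49e-12), and HAGH, a glyoxalase, rose most (log2 change 1.27, SE 0.081, adjusted p = 6.52e-12). Of 21 other thioredoxin and peroxiredoxin genes, 11 were higher and 5 lower in ICM (median 0.18) and 10 higher and 3 lower in old cells (median 0.23). TXNIP, which binds and inhibits thioredoxin, was the gene of its list that fell most in ICM and rose most in old cells, with transcripts of 102 ± 6.52 CPM in young, 259.9 ± 24.5 in old and 20.5 ± 3.62 in ICM (log2 change 1.35, SE 0.085, adjusted p = 4.34e-12 for old against young, and log2 change -2.30, SE 0.10, adjusted p = 4.25e-15 for ICM against young). Its footprints were likewise lower in ICM (log2 change -1.08, SE 0.34, adjusted p = 0.0157) and higher in old cells (log2 change 1.60, SE 0.20, adjusted p = 1.06e-07).

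In Ribo-Seq, 22 of 37 other glutathione genes were tested, of which 8 were higher and 1 lower in ICM (13.7% and 12.9% of all genes) and 4 higher and 2 lower in old cells (19.3% and 17.0%), each against young. GLRX, glutaredoxin (log2 change 1.63, SE 0.19, adjusted p = 2.79e-08), and MGST1, a membrane-bound glutathione transferase (log2 change 1.60, SE 0.19, adjusted p = 4.03e-08), rose most in ICM among those of at least 5 CPM. Of 15 other thioredoxin and peroxiredoxin genes tested, none was higher and TXNIP alone was lower in ICM by edgeR, while 4 were higher and 2 lower in old cells, PRDX6 (log2 change 0.84, SE 0.16, adjusted p = 0.000104) and TXNIP among the former. No gene of either list was called for translational efficiency in ICM or old against young cells, where only 2.45% and 1.45% of all genes were called in either direction.

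**Figure D5:**
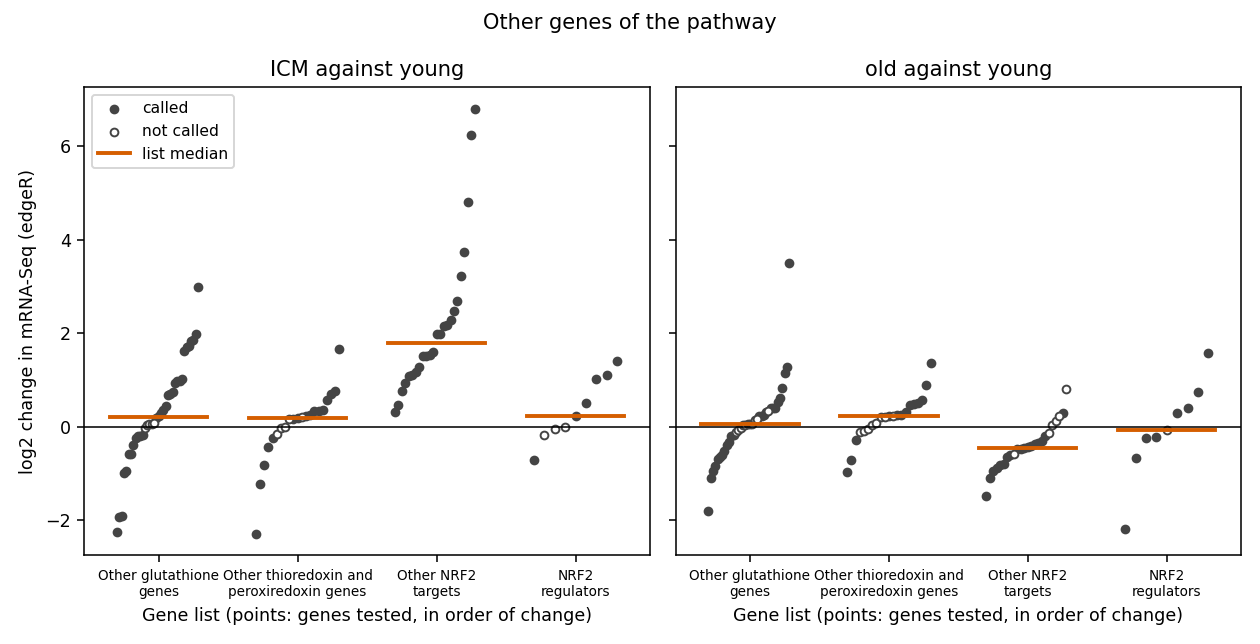
Log2 change in mRNA-Seq of the genes tested in 4 further lists, in ICM against young and old against young cells, with 1 point per gene in rank order and a line at the list median. In the list of other NRF2 targets all 24 points lie above 0 in ICM and most lie below 0 in old cells, and the other lists straddle 0 in both comparisons.

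Of the regulators, NFE2L2 itself had transcripts of 199 ± 2.38 CPM in the young libraries, 125 ± 11.6 in the old and 199 ± 6.83 in those of ICM. They fell in old cells (log2 change -0.67, SE 0.067, adjusted p = 1.16e-08) and no difference was called between ICM and young (log2 change 0.0016, adjusted p = 0.985), and its footprints also fell in old cells (log2 change -0.99, SE 0.23, adjusted p = 0.000784, and log2 change -1.06, adjusted p = 3.19e-05 without both lysates of low CDS share). KEAP1 transcripts were at 73.3 ± 1.72, 69.8 ± 3.16 and 149 ± 5.20 CPM in young, old and ICM, higher in ICM than in old cells (log2 change 1.10, SE 0.062, adjusted p = 6.12e-13) and than in young (log2 change 1.03, adjusted p = 1.46e-12). The small MAF genes MAFK and MAFG rose in ICM (MAFK log2 change 1.39, SE 0.093, adjusted p = 7.73e-12, and MAFG log2 change 1.11, SE 0.074, adjusted p = 7.72e-12), MAFK and MAFF rose in old cells (MAFK log2 change 1.58, SE 0.093, adjusted p = 1.80e-12, and MAFF log2 change 0.74, SE 0.081, adjusted p = 3.96e-08), and BACH1 fell in ICM in both assays (mRNA-Seq log2 change -0.71, SE 0.072, adjusted p = 8.92e-09, and Ribo-Seq log2 change -1.39, SE 0.49, adjusted p = 0.0336). Footprints of BACH1 were at 80.6 ± 1.85 CPM in young and 25.3 ± 13.1 in ICM. The ICM Ribo-Seq libraries held only 225041, 78980 and 46239 CDS reads, so this ICM level rests on few reads. MAFF transcripts were also higher on average in ICM, at 70.1 ± 5.81 CPM against 49.1 ± 1.13 in young. Those of MAFG were also higher on average in old cells, at 57.0 ± 5.62 CPM against 43.5 ± 1.72 in young. In all, 5 of the 9 regulators were higher and 1 lower in ICM (34.9% and 36.1% of all genes), and 4 higher and 4 lower in old cells (32.4% and 33.7%), by transcript.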

How the data were processed

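Ribo-Seq and mRNA-Seq of IMR90 fibroblasts were analysed from 18 tables, 1 per library, with groups and replicates taken from the sample titles. The deposited tables hold estimated counts, unscaled by the authors, with a column each for 5′ UTR, CDS, 3′ UTR, non-coding RNA and further classes of every gene symbol. The submitters' processing notes name STAR 2.6.0c, featureCounts, DESeq2, deepTools and the build GRCh37. How reads with several matches were divided is not given in the sources used here. Per the study's methods, cells were lysed with cycloheximide, part of each lysate gave poly(A) RNA for mRNA-Seq, and CDS reads were used for Ribo-Seq and transcripts for mRNA-Seq. The study's tool for translation, anota2seq, was not used here.

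CDS counts (Ribo-Seq) and summed 5′ UTR, CDS and 3′ UTR counts (mRNA-Seq) were rounded and tested by the quasi-likelihood method of edgeR 4.0.16 under R 4.3.3 (glmQLFTest after TMM scaling and filterByExpr), all 9 libraries of an assay in a single fit, with two-sided p-values adjusted by Benjamini-Hochberg over all genes tested and calls at 0.05. Translational efficiency was the interaction of assay and condition over 18 libraries with the lysate as a block. That block was taken from the study's methods, in which each lysate was divided between the assays. For efficiency, the alternative called no replicate block leaves this lysate block out. As a check, the deviations of the 9 library pairs gave r of -0.080 to 0.136 across genes, with 1 of 9 over 0.1. This check did not show the pairing, which rests on the study's methods alone. Each SE was derived from the fitted log2 change and the F value. Since the fit weights deep libraries more, a fitted change can differ from a ratio of mean CPM. Replicates were grown independently per the methods. CDS lengths are those of the MANE Select transcripts in GENCODE on GRCh37.

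Alternatives were DESeq2 1.42.0, RLE scaling, no filter or a mean of at least 50 counts, a stricter threshold (adjusted p under 0.01 and log2 change over 0.6), only the compared groups, mRNA-Seq CDS reads alone, fits with or without a replicate block, and leaving out each lysate, besides leaving out both lysates of low CDS share, which was chosen after seeing the data. The scripts were tested on simulated counts. Named genes were the 10 members and, per further list, measure and comparison, up to 2 called genes with the largest rise and up to 2 with the largest fall at a mean of at least 5 CPM, not all of which are described. A few of the named and nearest genes are not reported here. NFE2L2 and KEAP1 in ICM against young cells were added after their values were seen. The members, lists and tests were chosen with earlier results of these data known.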

Additional observations from a re-analysis of the deposited data

Results flagged for a closer look

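The change of footprints differed from the change of transcripts by the interaction test for TXN in ICM against young cells (log2 difference -0.77) and for OSGIN1 in old against young cells (2.13). Transcripts of 6 genes were called higher in ICM and lower in old cells, each against young, and the direct test of ICM against old gave log2 changes of 2.09 for SLC7A11, 2.26 for GSR, 1.69 for TXNRD1, 2.29 for TXN, 3.99 for NQO1 and 4.26 for OSGIN1. Footprints of 4 genes were called in opposite directions in the same way, with log2 changes of ICM against old of 2.08 for GSR, 1.30 for TXNRD1, 1.82 for TXN and 3.55 for NQO1. Over all genes tested, transcripts of 34.9% were higher in ICM and of 33.7% lower in old cells, and footprints of 13.7% and 17.0%. The share of all genes with both calls was not counted, so how unusual the 6 and 4 genes are is not known. Groups of 3 replicates are too small for a test of outlying samples.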

How the results depend on the processing

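Of 1542 values of the 10 genes under alternatives, 1442 kept their direction and side of the threshold, 51 lost and 15 gained a call, and 34 turned direction, none of which was called under either setting; the cause was not tested. The 10 of 10 calls in mRNA-Seq for ICM against young and against old held under every alternative run. In mRNA-Seq of old against young cells 3 genes were called at the stricter threshold instead of 8. In Ribo-Seq of old against young cells 6 became 2 with DESeq2, 3 without the filter, 2 at the stricter threshold, 3 with a replicate block, and 1 to 7 when 1 lysate was left out (1 without old replicate 3). For translational efficiency in ICM against young cells 1 became 0 at the stricter threshold and 0 to 1 with a lysate left out. In old against young cells 1 became 0 at a mean of at least 50 counts, which OSGIN1 did not reach, 2 with no replicate block, and 0 to 1 with a lysate left out. In ICM against old cells 0 became 1 without the filter, 1 with no replicate block, and 0 to 2 with a lysate left out. The replicate block changed no other of these counts by over 1.5 times, and over all genes gave 741 calls for ICM and 653 for old against young in Ribo-Seq, while efficiency with no replicate block had 308 for ICM against young, 462 for old against young and 53 for ICM against old. In the fits of a single assay, a replicate block joins libraries of different conditions that share only a number. The r was -0.197 to 0.274 between same-numbered mRNA-Seq libraries (5 of 9 over 0.1) and 0.0042 to 0.056 in Ribo-Seq. For efficiency, the block left out was the lysate. In the Ribo-Seq fit with a replicate block the changes in old cells were -0.60 for GSR, 0.45 for SRXN1 and 1.58 for OSGIN1, and all 3 calls were lost.

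Some directions turned. For GCLM in old against young cells, the transcript change was -0.012 with CDS reads only (-0.015 to 0.076 with a lysate left out). Its footprint change was 0.025 with only the compared groups and 0.029 without both lysates of low CDS share (-0.32 to 0.073 with a lysate left out). Its change in efficiency was -0.012 with RLE scaling, -0.061 with DESeq2, -0.025 without the filter, -0.017 at a mean of at least 50 counts and -0.0014 without both lysates (-0.34 to 0.22 with a lysate left out). The efficiency of SLC7A11 turned to -0.20 without the filter and -0.11 without both lysates in ICM against young (-0.14 to 0.22 with a lysate left out), to -0.014 with no replicate block and -0.079 without both lysates in old against young, and to 0.072 with no replicate block in ICM against old (-0.31 to 0.13 with a lysate left out). With a lysate left out, the efficiency ran from -0.068 to 0.77 for SRXN1 in ICM against young (with all lysates 0.65, and negative without ICM replicate 1), from -0.045 to 0.18 for PRDX1, -0.35 to 0.016 for GSR, -0.13 to 0.14 for TXNRD1 and -0.30 to 0.010 for GCLC in old against young, and from -0.71 to 0.030 for GCLM (with all lysates -0.29) and -0.30 to 0.030 for GCLC in ICM against old.

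Over all genes, calls and their range over the alternatives were 9357 (4867 to 9768) for ICM against young, 8709 (4075 to 9097) for old against young and 8338 (3706 to 8775) for ICM against old in mRNA-Seq, 1236 (619 to 1758), 1685 (516 to 3142) and 623 (332 to 924) in Ribo-Seq, and 113 (34 to 308), 67 (18 to 462) and 12 (3 to 53) for efficiency. Ribo-Seq depth limits the footprint results: OSGIN1 and SRXN1 had libraries with 1 read, and GCLC and GSR libraries with 5. The labels do not say whether the young cells received vehicle.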
